A study of Mus musculus with 13 samples.

Results

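The epidermal growth factor (EGF) receptor family and its ligands were followed in cultured mouse prostate progenitor/stem cells given the vitamin D hormone 1,25-dihydroxyvitamin D3 (1,25D). The set was a list of 10 genes, taken by symbol: the ligand genes Ereg, Areg, Hbegf, Tgfa, Btc, Egf and Epgn and the receptor genes Egfr, Erbb2 and Erbb3. Of these, 9 had a probe set with that symbol, 6 ligands and 3 receptors, out of 18193 named genes in all, and Areg was not analysed here. The 9 genes were read by 20 probe sets of 45037, and the brightest one, by its mean over all 13 arrays, stood for its gene.

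Cells came from 10 wk old wild-type mice, labelled B1/6; 127/SVEV, and all groups were cultured cells at passage 22. The groups were 100 nM 1,25D for 6 h (3 arrays), vehicle for 6 h (3 arrays), 100 nM 1,25D for 48 h (4 arrays) and vehicle for 48 h (3 arrays), with 0.1% ethanol as vehicle and treatment renewed every 24 h in the longer exposure. Whether replicates came from separate cultures is not stated, so p-values measure only the spread between these arrays, which may be technical.

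In this family each ligand is made as a membrane-anchored precursor and is released by ADAM proteases. EGF, transforming growth factor alpha, amphiregulin and epigen bind the EGF receptor, whereas epiregulin, betacellulin and heparin-binding EGF also bind ErbB4. Ligand binding pairs the receptors and switches on their kinase domains, which feeds the Ras and Erk cascade and drives growth of epithelial cells, prostate epithelium included. ErbB2 has no known soluble ligand of its own, and ErbB3 binds neuregulins but has little kinase activity.

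Values are log2 signals as deposited, so a difference of 1 is a doubling, and they ran from 3.05 to 14.45 with array medians of 5.57 to 5.67. Cyp24a1, the hormone-degrading enzyme gene that marks an active vitamin D receptor, read 12.18 to 13.21 on the 7 treated arrays and 4.10 to 4.92 on the 6 vehicle arrays. Basal epithelial markers were bright, all 8 of 8 above the median probe set, with Krt5 at 12.31 to 13.05 and Krt14 at 13.93 to 14.08, and 5 of 6 measured luminal markers lay above it, Krt8 and Krt18 among the brightest. The mean of the luminal markers differed between groups without overlap, at 10.67 to 10.80 in 1,25D and 10.29 to 10.40 in vehicle at 6 h, and at 10.89 to 10.98 in 1,25D and 11.13 to 11.14 in vehicle at 48 h. The basal mean was 9.97 to 10.04 in 1,25D and 10.06 to 10.33 in vehicle at 6 h, and 10.51 to 10.69 in 1,25D and 10.48 to 10.67 in vehicle at 48 h. The part of these shifts in the changes of the members was not tested. Of stromal, immune and endothelial markers 3 of 10, 4 of 7 and 0 of 5 lay above the median probe set, and dim ones included Col1a1 (4.27 to 4.84) and Ptprc (3.65 to 4.84), and probasin (Pbsn), a secretory product of the mature prostate, read 3.57 to 3.84. Vehicle 6 h replicate 1 and 1,25D 48 h replicate 4 stood apart, with interquartile ranges of 3.03 and 2.95 against 3.27 to 3.46 on the other arrays, and results they move are also given without them. Time in culture and any day of processing cannot be told apart, and in whole cultures fewer cells of a type and less RNA per cell cannot be told apart either.

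More members, as more of all genes, were called with time in culture than with the hormone. In limma's moderated test over all probe sets, with a Benjamini-Hochberg adjusted p under 0.05 as the call, 4 of 9 members changed in vehicle cultures at 48 h against 6 h, where 18.6% of all genes did. Of these 1 was higher and 3 lower, against 9.84% and 8.75% of all genes, and 4 members had an unadjusted p under 0.05, against 29.4%. Their groups did not overlap in 4 members, against 31% of all genes, 1 higher (15.8%) and 3 lower (15.2%). At 48 h, 1 of 9 members differed between 1,25D and vehicle, against 2.39% of all genes. That one was higher, against 1.43% of genes higher and 0.951% lower, and 3 members had an unadjusted p under 0.05, against 10.3%. At 6 h 0 of 9 were called by limma, against 0.852% of all genes, although 2 members had an unadjusted p under 0.05, as did 7.01% of all genes. Groups were fully apart at that time in 2 members (10.2% of genes), 1 higher (5.68%) and 1 lower (4.51%). The median log2 change over the 9 members was -0.08 at 6 h and 0.03 at 48 h, beside -0.02 and -0.0024 over all genes. The time comparison shares its vehicle arrays with both hormone comparisons, so a low vehicle array at 48 h lowers the change with time and raises the response to 1,25D.

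**Figure D1:**
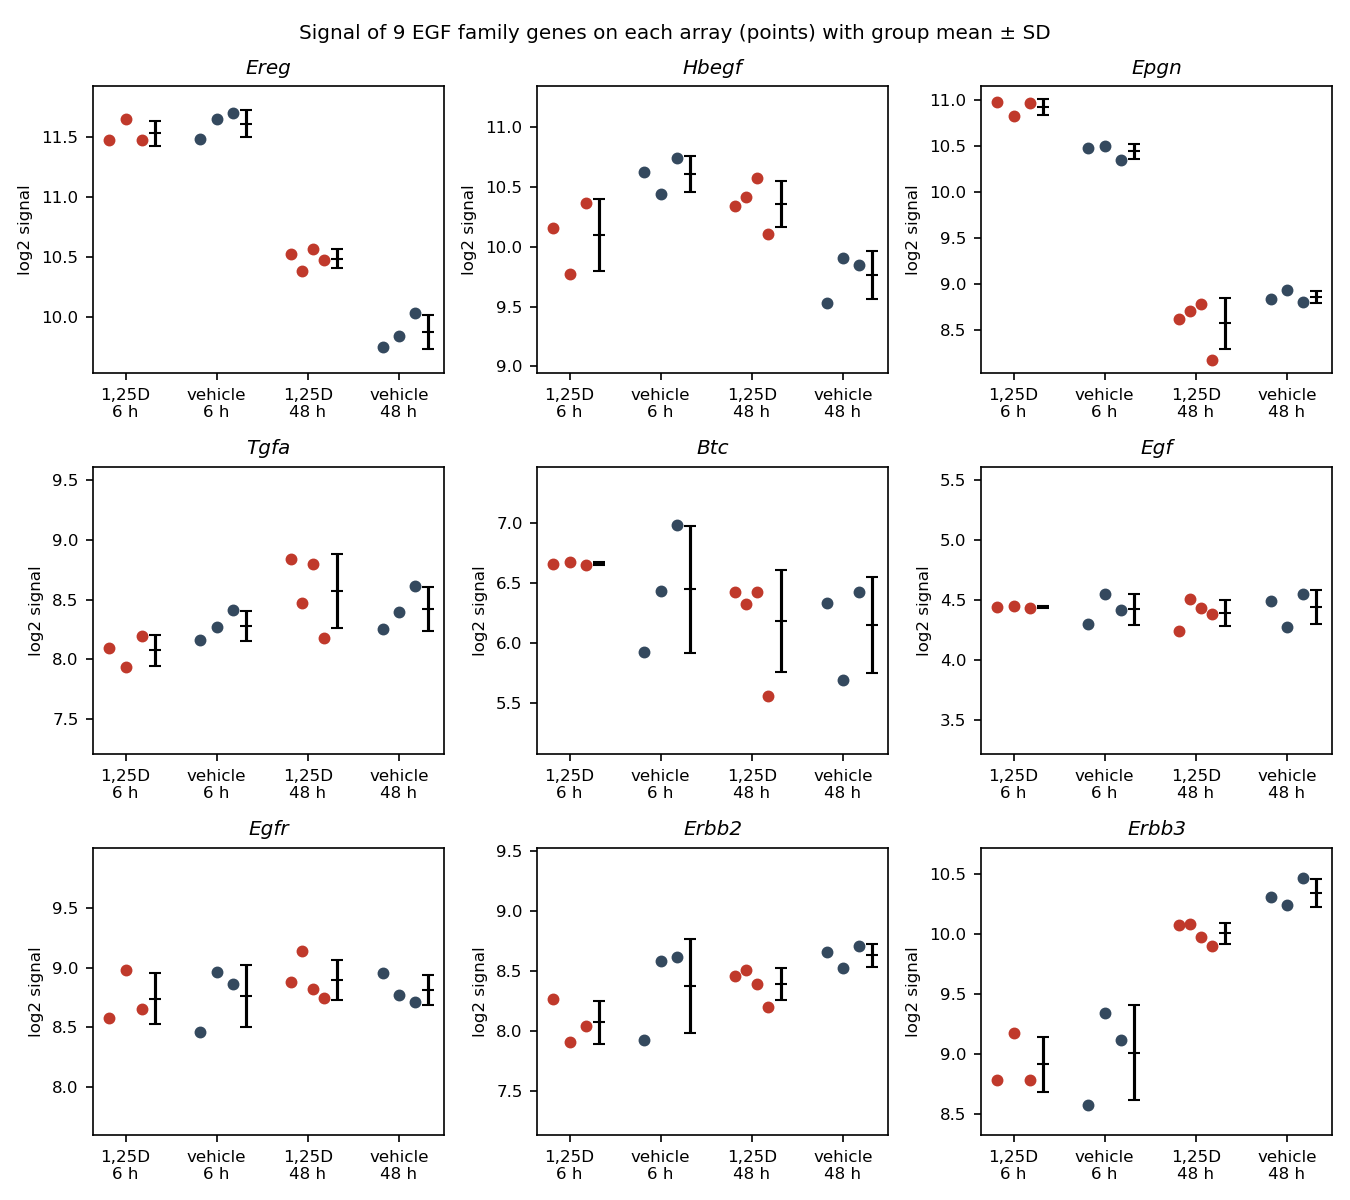
Log2 signal (vertical axis) of the 9 measured members by group (horizontal axis), 1 point per array with the group mean ± SD as a bar. Ereg, Hbegf and Epgn lay lower and Erbb3 higher in vehicle at 48 h than in vehicle at 6 h, and in Ereg the 1,25D 48 h arrays lay between vehicle at 48 h and vehicle at 6 h.

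Ereg encodes epiregulin, a ligand of keratinocytes and other epithelia that acts on the cells that make it. Its log2 signal was 10.53, 10.38, 10.56 and 10.47 in 1,25D at 48 h, against 9.75, 9.84 and 10.03 in vehicle at 48 h. At 6 h it was 11.47, 11.65 and 11.47 in 1,25D, against 11.48, 11.65 and 11.70 in vehicle. The treated and vehicle arrays overlapped at 6 h and were fully apart at 48 h, when every treated array lay higher.

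Ereg rose 1.53-fold with 1,25D at 48 h (log2 change 0.61, 95% interval 0.42 to 0.81, limma adjusted p = 0.00255). It was called under all 25 alternatives tried, with adjusted p from 0.000147 to 0.0229, and without the 2 arrays that stand apart the log2 change was 0.62 (adjusted p = 0.00411). At 6 h the log2 change was -0.08 (95% interval -0.29 to 0.13, limma adjusted p = 0.971). In vehicle Ereg fell with time to a mean of 9.87 ± 0.143 (SD, n = 3) at 48 h, against 11.61 ± 0.115 (SD, n = 3) at 6 h, a log2 change of -1.74 (95% interval -1.95 to -1.53, limma adjusted p = 9.08e-08). The mean in 1,25D was 10.49 ± 0.0788 (SD, n = 4) at 48 h and 11.53 ± 0.102 (SD, n = 3) at 6 h, so the treated cultures were also lower at the later time, a contrast that was not tested.

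The response of Ereg at 48 h exceeded that at 6 h by 0.69 on the log2 scale (95% interval 0.41 to 0.98, limma adjusted p = 0.0453), where 0.632% of all genes were called, 0.346% higher and 0.286% lower. An unadjusted p under 0.05 was seen for 3 members and for 7.23% of genes. That difference was the only one called among the 9 members, and it stands close to the threshold. It was called in 10 of 25 alternatives, with adjusted p up to 0.158. Omitting any 1 of the 3 treated arrays at 6 h, number 2 or 3 of vehicle at 6 h, number 1, 3 or 4 of the treated arrays at 48 h or number 1 or 2 of vehicle at 48 h ended the call, and it held without vehicle 6 h replicate 1 and without both arrays that stand apart (0.76, adjusted p = 0.0386).

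The 3 genes whose profile over the 13 arrays lay closest to that of Ereg, after each gene was centred on its own mean, were Phlda2, Ppa1 and Slc25a33, out of 16433 genes ranked. Their root mean square differences from Ereg were 0.197, 0.216 and 0.222 log2 units. Phlda2, an imprinted gene of the placenta, averaged 10.00 in 1,25D and 9.83 in vehicle at 6 h, and 8.70 in 1,25D and 8.24 in vehicle at 48 h. Ppa1 encodes a pyrophosphatase and Slc25a33 a mitochondrial nucleotide carrier.

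Hbegf encodes heparin-binding EGF, which is shed early after wounding in skin. Its log2 signal was 10.16, 9.78 and 10.37 in 1,25D at 6 h, against 10.63, 10.45 and 10.75 in vehicle. At 48 h it was 10.34, 10.42, 10.57 and 10.11 in 1,25D, against 9.53, 9.91 and 9.85 in vehicle. The treated arrays all lay below the vehicle arrays at 6 h and all above them at 48 h.

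Neither difference in Hbegf passed the test in the main fit. The log2 change with 1,25D was -0.51 at 6 h (95% interval -0.86 to -0.16, limma adjusted p = 0.424) and 0.60 at 48 h (95% interval 0.27 to 0.92, limma adjusted p = 0.0924). The 48 h response exceeded that at 6 h by 1.10 (95% interval 0.62 to 1.58, limma adjusted p = 0.0564). Without 1,25D 48 h replicate 4, its lowest treated array at that time, Hbegf was called at 48 h (0.68, adjusted p = 0.0486) and the difference of the responses was called as well (1.19, adjusted p = 0.0309). Both were called too when the pair that stands apart was left out (adjusted p = 0.0400 and 0.0404), and the difference was also called without 1,25D 6 h replicate 3 (adjusted p = 0.0485). With all arrays kept but weighted by quality, Hbegf was called at 48 h (0.68, adjusted p = 0.00418) and for the difference (adjusted p = 0.0155). The replicate number as a block also gave both calls (adjusted p = 0.0415 and 0.0289). Quantile normalization and leaving out dim probe sets gave only that of the difference (adjusted p = 0.0304 and 0.0376). In all, 4 of 25 alternatives called Hbegf at 48 h and 7 of 25 called the difference.

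With time in vehicle Hbegf fell by 0.85 on the log2 scale (limma adjusted p = 0.00293), to 9.76 ± 0.202 (SD, n = 3) at 48 h, against 10.61 ± 0.152 (SD, n = 3) at 6 h. A second, dimmer Hbegf probe set fell by 0.78 (limma adjusted p = 0.0335). Its log2 change with 1,25D was -0.36 at 6 h and 0.41 at 48 h, without a call (limma adjusted p = 0.965 and 0.801), and its treated and vehicle arrays overlapped at both times.

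Epgn encodes epigen, a ligand of epithelia that binds the EGF receptor weakly but signals for long. Its log2 signal was 10.98, 10.83 and 10.96 in 1,25D at 6 h, against 10.47, 10.50 and 10.35 in vehicle. At 48 h it was 8.61, 8.71, 8.78 and 8.17 in 1,25D, against 8.83, 8.93 and 8.80 in vehicle. The treated arrays all lay above vehicle at 6 h and all below it at 48 h, the reverse of Hbegf. Such a switch between groups that did not overlap at either time was seen in 0.539% of all genes.

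The Epgn differences with 1,25D were not called. The log2 change was 0.48 at 6 h (95% interval 0.18 to 0.79, limma adjusted p = 0.293) and -0.29 at 48 h (95% interval -0.57 to -0.0021, limma adjusted p = 0.71), and the responses differed by -0.77 (limma adjusted p = 0.191). Without the 2 arrays that stand apart these were 0.50 at 6 h (adjusted p = 0.0687) and -0.15 at 48 h (adjusted p = 0.692). With time in vehicle Epgn fell 3.00-fold, to 8.85 ± 0.0663 (SD, n = 3) at 48 h, against 10.44 ± 0.0814 (SD, n = 3) at 6 h (log2 change -1.58, 95% interval -1.89 to -1.28, limma adjusted p = 6.17e-06).

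Epgn, Ereg, Areg and Btc follow each other on chromosome 5 with no other protein-coding gene between them in the RefSeq annotation of GRCm38.p6. The promoters of Epgn, which fell with time in vehicle, and of its neighbour Btc, which was not called, are shown from RefSeq, 250 bases before to 50 after the gene start, as chr5:91027267-91027566 on the plus strand and chr5:91402945-91403244 on the minus strand. Capitals mark matches to the motifs searched on both strands. Windows of the listed genes were taken by symbol, with a chromosome left out of that search, and covered 7 of the 10 genes. No window was searched for Ereg, Erbb3 and Hbegf. A gene without a window was either absent from the set of windows or on the chromosome left out, and the search did not keep these apart. The missing windows therefore say nothing about motifs near these genes.
Epgn: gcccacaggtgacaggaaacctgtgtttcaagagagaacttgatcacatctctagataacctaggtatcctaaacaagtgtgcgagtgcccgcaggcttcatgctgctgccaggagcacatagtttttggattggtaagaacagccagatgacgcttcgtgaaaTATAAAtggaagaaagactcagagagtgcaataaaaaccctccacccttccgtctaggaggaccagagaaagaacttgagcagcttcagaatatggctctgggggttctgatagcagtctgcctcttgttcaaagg
Btc: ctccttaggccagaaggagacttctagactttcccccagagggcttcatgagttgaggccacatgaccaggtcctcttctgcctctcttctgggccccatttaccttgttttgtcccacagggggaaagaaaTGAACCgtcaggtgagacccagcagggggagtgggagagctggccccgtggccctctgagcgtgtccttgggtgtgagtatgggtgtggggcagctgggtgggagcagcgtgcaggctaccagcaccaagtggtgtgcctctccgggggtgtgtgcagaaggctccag
The half-sites were of the kind the vitamin D receptor binds: AGGTCA, present in 16.3% of 32851 promoter windows of 300 bases, AGTTCA, present in 14% of them, GGGTCA, present in 13.7%, and GGTTCA, present in 10.4%. Direct repeats of these with a spacer of 3 bases stood in 0.0396% of windows, the AP-1 site TGACTCA in 5.2%, and the TATA motif TATAAA in 13.6%. A match to any of the 4 half-sites was common, present in 43.7% of windows. Epgn held TATAAA at bases 165 to 170. Btc held GGTTCA on the opposite strand at bases 133 to 138. No other motif searched matched in these 2 windows, and the matches overlap no other. Among the windows not shown, that of Areg held TATAAA at bases 220 to 225 and GGGTCA on the opposite strand at bases 275 to 280. That of Egfr held GGGTCA on the opposite strand at bases 59 to 64. The windows of Tgfa, Egf and Erbb2 held no match. A match is a description of the letters and no evidence of binding.

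The other ligands showed no called change. Tgfa, the gene of transforming growth factor alpha, was 8.84, 8.47, 8.80 and 8.18 in 1,25D at 48 h, against 8.25, 8.40 and 8.61 in vehicle, and the groups overlapped. Its log2 change with 1,25D was -0.21 at 6 h (95% interval -0.58 to 0.17) and 0.15 at 48 h (95% interval -0.20 to 0.50), and without the pair of arrays that stands apart -0.27 and 0.28. For Btc, the gene of betacellulin, it was 0.21 (95% interval -0.41 to 0.83) at 6 h and 0.03 (95% interval -0.54 to 0.61) at 48 h, the widest intervals among the main probe sets of the family. Its lowest values, 5.55 in 1,25D at 48 h and 5.69 and 5.93 in vehicle at 48 h and 6 h, included both arrays that stand apart. Without them the log2 change of Btc with 1,25D turned to -0.05 at 6 h and was 0.24 at 48 h, and that with time in vehicle was -0.56 (limma adjusted p = 0.0844), against -0.30 with all arrays.

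Egf itself was dim, between 4.24 and 4.55 on all arrays, at the 23.5 percentile of all probe sets by its mean. Detection calls were not used, so whether Egf RNA was present is not known. Its log2 change with 1,25D was 0.02 at 6 h (95% interval -0.20 to 0.24) and -0.05 at 48 h (95% interval -0.26 to 0.16).

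**Figure D2:**
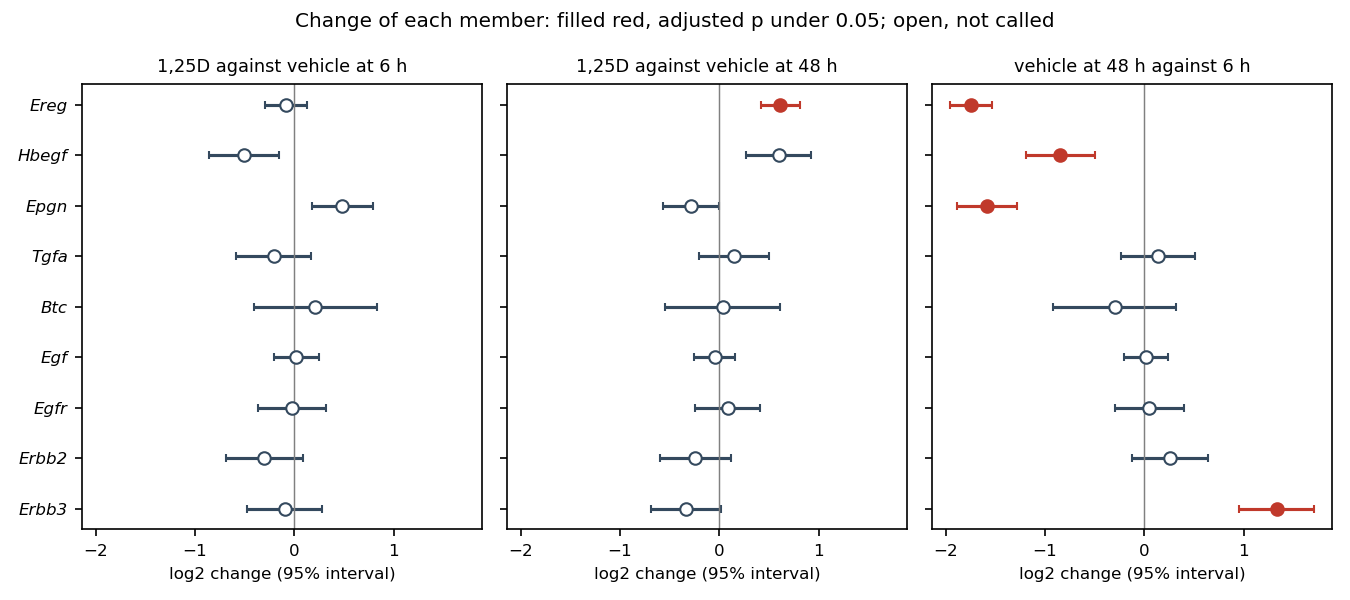
Log2 change (horizontal axis, shared scale) of each member's main probe set with its 95% interval from the limma fit, for 1,25D over vehicle at 6 h, 1,25D over vehicle at 48 h, and vehicle at 48 h over vehicle at 6 h. Filled red points were called at an adjusted p under 0.05: none at 6 h, Ereg at 48 h (0.61), and Ereg (-1.74), Hbegf (-0.85), Epgn (-1.58) and Erbb3 (1.33) with time in vehicle.

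Among the receptors, Erbb3 changed with time and none was called with 1,25D by limma. Of all genes, 0.852% were called at 6 h and 2.39% at 48 h. With all arrays 0 of 3 receptors had an unadjusted p under 0.05 at either time, against 7.01% and 10.3% of all genes. That count rests on the arrays standing apart. Erbb3, whose protein pairs with ErbB2 to signal through PI3-kinase, was 10.31, 10.25 and 10.47 in vehicle at 48 h, against 8.57, 9.34 and 9.12 in vehicle at 6 h. It rose 2.52-fold with time in vehicle (log2 change 1.33, 95% interval 0.96 to 1.71, limma adjusted p = 0.000148), and the groups did not overlap. Without the 2 arrays that stand apart the log2 change was 1.11 (adjusted p = 0.000142).

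At 48 h Erbb3 was 10.07, 10.08, 9.98 and 9.90 in 1,25D, all below the vehicle arrays. The log2 change was -0.33 (95% interval -0.68 to 0.02, limma adjusted p = 0.772), and at 6 h it was -0.10 (95% interval -0.47 to 0.28). Without the arrays standing apart it was -0.30 at 48 h (unadjusted p = 0.0371, adjusted p = 0.426) and -0.32 at 6 h (unadjusted p = 0.045, adjusted p = 0.422). A second Erbb3 probe set did not follow the first: it was dim, 4.86 to 5.53 over all arrays, and its log2 change with time in vehicle was -0.06 (limma adjusted p = 0.934). The rise of Erbb3 therefore rests on 1 of its 2 probe sets.

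Erbb2, the gene of the coreceptor, was 8.46, 8.51, 8.39 and 8.20 in 1,25D at 48 h, against 8.66, 8.52 and 8.71 in vehicle. The treated arrays were all lower, with a log2 change of -0.24 (95% interval -0.60 to 0.12, limma adjusted p = 1). At 6 h the log2 change was -0.30 (95% interval -0.68 to 0.08, limma adjusted p = 0.961), with vehicle 6 h replicate 1 the only vehicle array (7.92) inside the treated range of 7.91 to 8.27. Without that array it was -0.53 (adjusted p = 0.2), and without both that stand apart -0.53 (unadjusted p = 0.00176, adjusted p = 0.106). At 48 h the groups were fully apart in 5 of 9 members and 12.6% of all genes, 2 members higher (5.47% of genes) and 3 lower (7.11%).

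Egfr, the gene of the EGF receptor, moved least among the receptors. Its main probe set read 8.88, 9.14, 8.82 and 8.74 in 1,25D at 48 h, against 8.95, 8.77 and 8.71 in vehicle, and 8.58, 8.98 and 8.66 in 1,25D at 6 h, against 8.46, 8.96 and 8.86 in vehicle. The log2 change with 1,25D was -0.02 at 6 h (95% interval -0.37 to 0.32) and 0.08 at 48 h (95% interval -0.24 to 0.41), or -0.17 and 0.13 without the arrays standing apart, and with time in vehicle it was 0.05 (95% interval -0.30 to 0.40). Of its 7 probe sets none was called by limma in any of the 4 comparisons, and none had an unadjusted p under 0.05. For the main probe set, intervals of this width leave room for changes of up to about 1.33-fold at 48 h. Some of the other probe sets had wider intervals at 48 h, the widest -0.99 to 0.30 around a log2 change of -0.35. The changes of the other probe sets went in both directions.

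**Figure D3:**
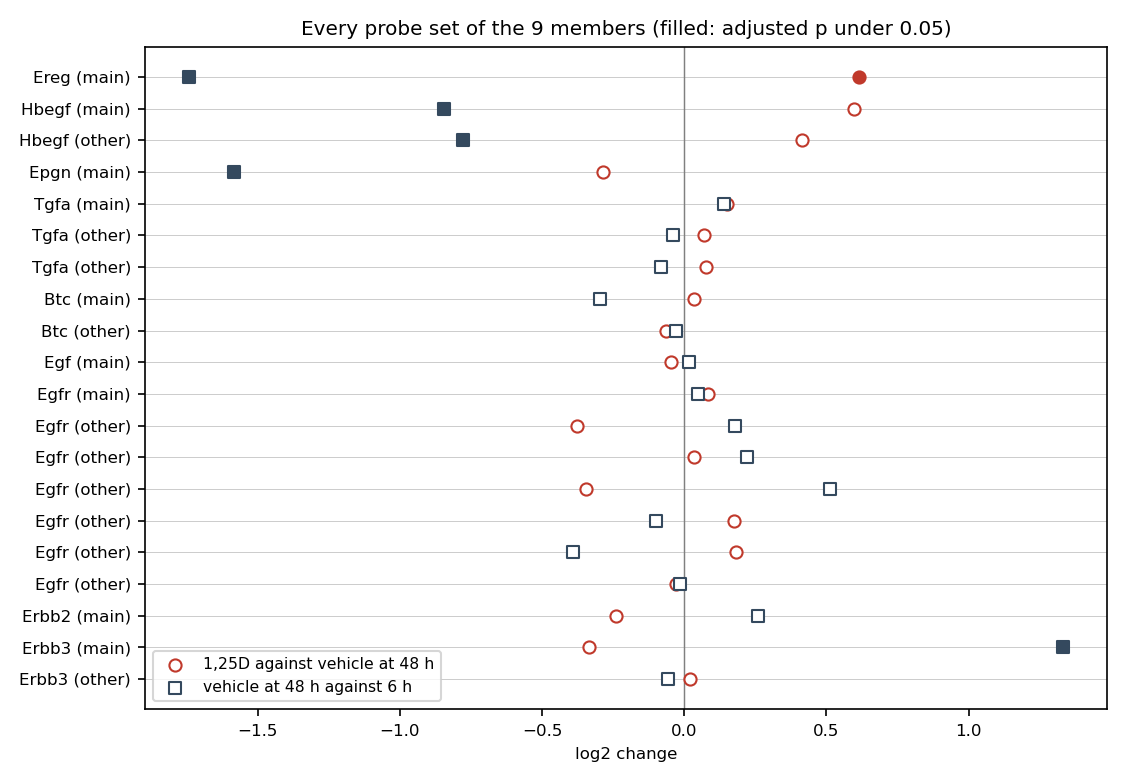
Log2 change (horizontal axis) of all 20 probe sets of the 9 members, with 1,25D over vehicle at 48 h as circles and vehicle at 48 h over 6 h as squares, filled where the adjusted p was under 0.05. Both Hbegf probe sets fell with time, whereas of the 2 Erbb3 probe sets only the brighter one rose (1.33 and -0.06).

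Genes around the receptors were counted in 5 lists. Of ErbB4 and the neuregulins, 1 of 5 was called with 1,25D at 48 h, against 2.39% of all genes: Nrg1, the gene of neuregulin 1, a ligand of ErbB3 and ErbB4, averaged 7.43 ± 0.249 (SD, n = 4) in 1,25D and 6.45 ± 0.311 (SD, n = 3) in vehicle (log2 change 0.98, limma adjusted p = 0.0302). At 6 h it averaged 7.77 ± 0.250 in 1,25D and 6.98 ± 0.338 in vehicle (SD, n = 3 each), a change of 0.79 that was not called (adjusted p = 0.238). The 48 h call was lost under 8 of 25 alternatives, among them the omission of treated array 1, 2 or 3 at 48 h, vehicle array 1 or 2 at 48 h, or treated array 3 at 6 h (adjusted p at most 0.194), and it held without the pair that stands apart (adjusted p = 0.00376). The median change of that list was 0.07 at 48 h.

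Among sheddases and their regulators, 0 of 10 were called with 1,25D by limma at either time. Of all genes 0.852% were called at 6 h and 2.39% at 48 h. Of the 10, 0 had an unadjusted p under 0.05, against 7.01% of all genes at 6 h and 10.3% at 48 h. With time in vehicle 2 of 10 were called, close to the 18.6% of all genes. Adam12, a protease reported to release heparin-binding EGF, fell to 7.26 ± 0.116 at 48 h, against 8.83 ± 0.146 at 6 h (SD, n = 3 each; log2 change -1.58, limma adjusted p = 3.28e-05), whereas Adam8 rose by 0.52 (adjusted p = 0.0237). The Adam8 call ended when vehicle array 2 or 3 at 48 h or array 1 at 6 h was left out (adjusted p at most 0.11), and when the pair that stands apart was (adjusted p = 0.0657).

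Among 18 inhibitors of the receptors or of Ras signalling, 1 rose and 1 fell with 1,25D at 48 h, against 1.43% and 0.951% of all genes. At 6 h 0 were called by limma (0.852% of all genes), and 4 had an unadjusted p under 0.05 (7.01%). Spry1, a Sprouty inhibitor that growth factor signalling itself induces, rose to 9.90 ± 0.140 (SD, n = 4) in 1,25D, against 9.25 ± 0.336 (SD, n = 3) in vehicle (log2 change 0.65, limma adjusted p = 0.0433). This call was lost under 12 of 25 alternatives, 9 of them the omission of 1 array: any treated array at 6 h, vehicle array 3 at 6 h, treated array 1, 2 or 3 at 48 h, or vehicle array 1 or 2 at 48 h (adjusted p at most 0.262). Ptprk, a receptor phosphatase known to dephosphorylate the EGF receptor, fell to 9.41 ± 0.106 (SD, n = 4) in 1,25D, against 10.35 ± 0.0657 (SD, n = 3) in vehicle (log2 change -0.94, limma adjusted p = 0.000783), and lost its call only with the mean of all its probe sets (adjusted p = 0.142). Errfi1, the feedback inhibitor of the EGF receptor also called Mig6, was picked after its values were seen: its log2 change was 0.54 at 6 h (adjusted p = 0.0618) and 0.04 at 48 h (adjusted p = 1). With time in vehicle 2 of 18 rose and 0 fell, against 9.84% and 8.75% of all genes, Socs3 by 0.77 and Cblb by 0.74 (limma adjusted p = 0.0279 and 0.0366). Leaving out vehicle array 1 or 3 at 48 h or array 1 at 6 h ended the Socs3 call (adjusted p at most 0.103). That call was also lost without probe sets open to several transcripts (0.46, adjusted p = 0.0977). The Cblb call ended when any of 6 single arrays was left out (adjusted p at most 0.162). These were vehicle 2 or 3 at 48 h, vehicle 1 or 2 at 6 h and treated 1 or 3 at 6 h. The Cblb call also ended without the pair that stands apart (adjusted p = 0.0694). Median centring, the 2 groups compared alone and the mean of all its probe sets ended it too (adjusted p at most 0.562).

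Among 20 measured adaptors and cascade members of 25 listed, 1 fell with 1,25D at 6 h, where 0.852% of all genes were called. At 48 h 0 were called by limma (2.39% of all genes), and 1 had an unadjusted p under 0.05 (10.3%). The gene that fell was Stat3, a transcription factor downstream of several receptors, at 10.32 ± 0.322 in 1,25D and 11.26 ± 0.210 in vehicle (SD, n = 3 each; log2 change -0.94, limma adjusted p = 0.00855, and 0.0514 without vehicle 6 h replicate 2), a call also lost without probe sets open to several transcripts (-0.56, adjusted p = 0.0967). With time in vehicle 5 of 20 rose and 1 fell, against 9.84% and 8.75% of all genes. The kinase gene Map2k1 rose by 0.80, the docking protein genes Gab2 and Gab1 by 1.15 and 0.74, the adaptor gene Grb7 by 0.64 and Stat3 by 0.64, and the kinase gene Akt1 fell by 0.60 (limma adjusted p from 9.37e-05 to 0.0138). The Akt1 call ended when vehicle array 1 or 2 at 48 h or array 2 or 3 at 6 h was left out (adjusted p at most 0.0635), that of Stat3 with vehicle array 1 of either time (at most 0.0521), and that of Grb7 with vehicle array 2 or 3 at 48 h (at most 0.0517). Gab2 was not called without probe sets open to several transcripts (adjusted p = 0.993). The Akt1 call was also lost with the mean of all its probe sets.

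Among transcripts that Erk signalling induces, 1,25D calls went in both directions. At 6 h 1 of 17 rose and 2 fell, against 0.852% of all genes called, and 8 had an unadjusted p under 0.05, against 7.01%. At 48 h 3 rose and 1 fell, against 2.39% called, and 9 had an unadjusted p under 0.05, against 10.3%. The list medians were -0.10 at 6 h and 0.22 at 48 h, beside -0.02 and -0.0024 over all genes. Egr1, an immediate early transcription factor, was lower at both times, at 7.12 ± 0.361 in 1,25D and 9.21 ± 0.312 in vehicle at 6 h (SD, n = 3 each), and at 9.82 ± 0.0901 (SD, n = 4) in 1,25D and 10.70 ± 0.0559 (SD, n = 3) in vehicle at 48 h. Its log2 changes were -2.09 and -0.88 (limma adjusted p = 4.06e-05 and 0.0163), and omitting treated array 3 or any vehicle array at 48 h ended the later call (adjusted p at most 0.0911). The replicate number as a block ended that later call too. Fos, another immediate early gene, rose by 0.57 and 0.67 (limma adjusted p = 0.0146 and 0.00146), and omitting treated array 1 or 3 or vehicle array 2 at 6 h ended the earlier call (adjusted p at most 0.0985).

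At 48 h the cyclin gene Ccnd1 rose by 0.46 (limma adjusted p = 0.00876) and Dusp5, a phosphatase of nuclear Erk, by 0.94 (adjusted p = 0.0186). The Dusp5 call ended when treated array 1, 2 or 3 or vehicle array 1 or 2 at 48 h was left out (adjusted p at most 0.129). Dusp5 averaged 9.60 in 1,25D and 8.82 in vehicle at 6 h, and 8.80 in 1,25D and 7.86 in vehicle at 48 h. Its fall with time in vehicle was called in the main fit and under all 25 alternatives, so its higher signal with 1,25D at 48 h stood against a lowered vehicle level. Myc fell by 0.60 at 6 h (limma adjusted p = 0.0124), a call that ended when treated array 1 or 2 or vehicle array 2 at 6 h was omitted (adjusted p at most 0.0915). Its response at 48 h exceeded that at 6 h by 0.82 (limma adjusted p = 0.0217), a call that ended when treated array 1 or 2 at 6 h, treated array 1 at 48 h or any vehicle array at 48 h was omitted (adjusted p at most 0.0844). Median centring and the replicate number as a block also ended the call of this Myc difference. With time in vehicle 2 of 17 rose and 4 fell, against 9.84% and 8.75% of all genes, among them Egr1, which rose by 1.49 (limma adjusted p = 7.51e-05) and Fosl1, an AP-1 subunit, which fell by 1.80 (adjusted p = 2.37e-05). Fits of the 2 compared groups alone hold fewer arrays. They also ended the calls of Stat3, Fos and Myc at 6 h and of Nrg1 and Spry1 at 48 h. With time in vehicle they ended those of Adam8, Socs3, Cblb and Akt1.

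**Figure D4:**
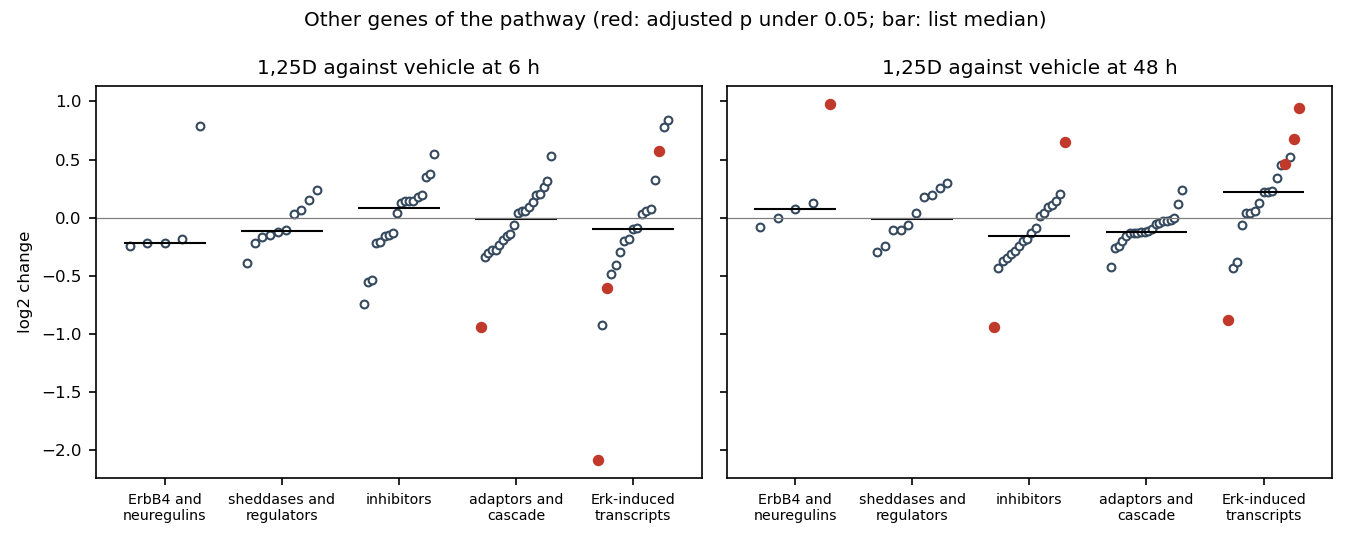
Log2 change (vertical axis) of every measured gene of the 5 pathway lists with 1,25D over vehicle at 6 h and at 48 h, ordered by value within a list, with red points called at an adjusted p under 0.05 and a bar at the list median. The list medians lay between -0.21 and 0.09 at 6 h and between -0.16 and 0.22 at 48 h, and the largest single change was that of Egr1 at 6 h (-2.09).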

How the data were processed

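RNA of 13 samples was read on 1 Affymetrix mouse array each. The authors' deposited values are log2 signals, 1 per probe set and sample, and were used as given; the submitters' processing notes name MAS5 with no role, and the scaling between arrays is not given in the sources used here. Probe sets were named from the platform annotation (34945 with 1 symbol, 932 with several, 9160 with none); 64 control sets were left out, and none was named from several symbols. No symbol needed updating through GRCm38.p6.

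All 13 arrays entered 1 model of 4 group means (limma 3.58.1, R 4.3.3; eBayes with an intensity trend, two-sided), with Benjamini-Hochberg adjustment over 45037 probe sets and a threshold of 0.05. The scripts were tested on simulated data. Figures used matplotlib 3.10.9. No array repeated another (correlations 0.951 to 0.997), and the number of arrays limits the precision. Pathway genes were named where called, at most 6 a list, with Errfi1 added after its values were seen. The members, lists, markers and alternatives were chosen with earlier results of these data known. Alternatives were other scalings, filters, variance models and probe set rules, the replicate number as a block, and leaving out arrays.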

Additional observations from a re-analysis of the deposited data

Results flagged for a closer look

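Ereg responded differently to 1,25D at the 2 times by a test of the difference itself: the log2 change at 48 h exceeded that at 6 h by 0.69 (limma adjusted p = 0.0453). That call stood close to the threshold and was made in 10 of 25 alternatives, with adjusted p up to 0.158. Btc held 1 array far from the others of its group: in 1,25D at 48 h replicate 4 read 5.55 against 6.33 to 6.43 on the other 3, a gap of 0.884 of the group's range. That array is 1 of the 2 that stand apart. The test for such arrays was run on the 1,25D 48 h group for 9 members, and chance flags about 1 in 20 groups.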

How the results depend on the processing

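Of 36 member results (9 members in 4 comparisons) 6 were called. Over 25 alternatives none of the 6 changed sign, and 135 of 150 values kept the call; the 15 losses were all those of the Ereg difference between responses. Of 742 values of results not called, 38 had another sign and 11 were called, all of Hbegf. At 6 h 0 members were called throughout, and with time in vehicle 4 throughout. At 48 h the count was 2 (Ereg and Hbegf) with array quality weights or without the 2 arrays that stand apart, and 1 to 2 when 1 array was left out. For the difference of responses it was 2 with quantile normalization, without dim probe sets (lowest 40%), with array quality weights or without the 2 arrays that stand apart. It was 0 with median centring, no intensity trend, a robust estimate or without probe sets open to several transcripts, and 0 to 1 when 1 array was left out; the cause was not tested. Ereg's adjusted p was 0.0988, 0.0760, 0.0504 and 0.0512 in those 4.

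Whether the replicate numbers pair the samples is not settled by these arrays. Deviations of same-numbered arrays correlated by 0.277, 0.222 and 0.0692 at 6 h and -0.00941, -0.534 and 0.386 at 48 h. At 6 h each treated array correlated best with the vehicle array of its own number. At 48 h not every treated array did. With the number as a replicate block, which leaves 1,25D 48 h replicate 4 without a partner, 0 members were called at 6 h, 2 at 48 h, 1 for the difference (Hbegf, 1.19, adjusted p = 0.0289; Ereg 0.70, adjusted p = 0.115) and 4 with time. The number of genes called among all was 155 at 6 h, and 68 with the groups compared alone or 248 without the 2 arrays. At 48 h it was 434, and 1043 with array quality weights or 260 to 500 without 1 array. For the difference it was 115, and 262 with weights, 183 with the mean of a gene's probe sets, 199 without the 2 arrays, or 66 to 130 without 1 array. Dim probe sets such as that of Egf cannot show small changes.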
